A study of Mus musculus with 8 samples.

Results

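The genes described here encode 2 Ras GTPases (*Hras* and *Nras*), 4 class I PI3-kinase catalytic subunits (*Pik3ca*, *Pik3cb*, *Pik3cd* and *Pik3cg*) and 3 PI3-kinase regulatory subunits (*Pik3r1*, *Pik3r2* and *Pik3r5*). They are the 9 rows with these gene names in a table of 54532 genes, and all 9 had enough reads to be tested. In *Zeb1*-/- EpCAM+ LSK cells *Hras*, *Nras* and *Pik3r2* were lower than in *Zeb1*-/- EpCAM- LSK cells, by 33.3%, 22.6% and 48.0%. *Pik3r5* was higher by 68.4%, on fewer reads and with less even replicates. The 4 catalytic subunit genes and *Pik3r1* did not pass the test.

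Ras proteins are small GTPases that switch on at the membrane when growth factor and cytokine receptors recruit exchange factors, and they pass the signal to the RAF-MEK-ERK kinases and to PI3-kinase. Class I PI3-kinases phosphorylate a membrane lipid to make PIP3, which recruits AKT and other kinases. A catalytic subunit (p110) works together with a regulatory one: p110 alpha, beta and delta pair with the p85 family, and p110 gamma with p101 or p84. In blood cells these enzymes act below receptors such as KIT, FLT3 and the cytokine receptors.

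RNA-Seq was performed on 8 libraries, 4 of the EpCAM+ and 4 of the EpCAM- fraction of Lin- C-KIT+ SCA-1+ (LSK) bone marrow cells, the compartment that holds hematopoietic stem and early progenitor cells (HSPCs). Both fractions came from C57BL/6 mice aged 8 to 12 weeks that carried floxed *Zeb1* alleles and Mx1-Cre and had received 6 doses of 0.3 mg pIpC, a synthetic double-stranded RNA that induces the Cre, and cells were taken on day 14 after the last dose. Mx1-Cre responds to interferon and also deletes outside the blood system, and since every library is from deleted mice the comparison is between fractions, with no control genotype. The labels give 4 mice per genotype and do not say whether libraries with the same replicate number share a mouse.

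The libraries held 14114491 to 17073546 counts assigned to genes. *Epcam*, the gene of the sorting marker, was at 160 to 233 CPM (counts scaled to a library total of 1000000 after TMM adjustment, which evens out the libraries' composition) in EpCAM+ libraries and at 1.25 to 8.97 CPM in EpCAM- libraries. Reads of *Zeb1* were found in both, at 14.8 to 23.7 CPM in EpCAM+ and 9.46 to 14.0 CPM in EpCAM- libraries, and a count per gene cannot tell deleted from intact transcripts. Of 12 LSK and stem cell markers, 9 were higher in EpCAM+ libraries and none was lower by edgeR's test, with a summed level of 2600 to 2970 CPM against 1540 to 2240 CPM. Monocyte and neutrophil markers summed to 951 to 1620 CPM in EpCAM+ and 11300 to 17900 CPM in EpCAM- libraries (4 of 9 tested lower, namely *Mpo*, *Elane*, *Ctsg* and *Csf1r*). Most of the sum was *Mpo* (mean 779 CPM against 10400 CPM). The other 5 tested genes, among them *Itgam*, *S100a8* and *S100a9*, were not called. Erythroid and megakaryocyte markers summed to 158 to 425 CPM against 358 to 947 CPM (4 of 10 lower, 1 higher). Plasma cell markers summed to 388 to 3970 CPM against 170 to 258 CPM, with EpCAM+ replicate 1 at 3970 CPM (3 of 5 tested higher), and dendritic cell markers to 508 to 857 CPM against 326 to 498 CPM (5 of 8 higher). Most of the dendritic cell sum was *Flt3* (mean 365 CPM against 199 CPM), *Bst2* (109 against 111 CPM) and *Tcf4* (107 against 91.0 CPM). *Flt3* is also in the list of upstream receptors, and *Bst2* and *Tcf4* were not called. *Xcr1* was at a mean of 81.1 CPM against 0.402 CPM. Most of the plasma cell sum was *Jchain* (mean 1090 CPM against 0.13 CPM) and *Xbp1* (238 against 224 CPM), and *Xbp1* was not called. B-lineage markers summed to 72.9 to 123 CPM against 47.0 to 79.6 CPM with *Pax5* at 0 in all libraries (2 of 4 higher), and T cell markers to 52.8 to 67.5 CPM against 17.1 to 29.4 CPM with *Cd3e* at 0 in every EpCAM- library (2 of 2 tested higher). Nearly all of the T cell sum was *Lck* (50.2 to 62.5 CPM against 16.2 to 27.4 CPM), and the other 7 genes summed to 2.61 to 4.96 CPM against 0.88 to 2.49 CPM. Most of the B-lineage sum was *Cd79b* (mean 69.0 CPM against 56.2 CPM), which was not called. Epithelial and stromal markers, *Epcam* included, summed to 414 to 493 CPM against 140 to 189 CPM, with *Col1a1* at 0 in all libraries (4 of 6 higher). In such bulk samples a larger share of cells of one type and more RNA per cell cannot be told apart, and the part of these cell mixtures in the values below was not tested.

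Over all libraries 13560 genes were tested with edgeR (quasi-likelihood, Benjamini-Hochberg adjustment), and 42.6% of them passed an adjusted p of 0.05. Genes higher in EpCAM+ libraries made up 21.8% and genes lower made up 20.8%. Of the 9 Ras and PI3-kinase genes 4 passed (44.4%), a share close to that background, with 1 higher and 3 lower. The median log2 fold change (EpCAM+ over EpCAM-) of the 9 was 0.13, and that of all tested genes was 0.02. In 3 of the 9 the TMM-scaled CPM of the fractions did not overlap, against 40.1% of all tested genes. The 3 genes without overlap were *Hras*, *Nras* and *Pik3r2*, each lower in all 4 EpCAM+ libraries than in any EpCAM- library.

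**Figure D1:**
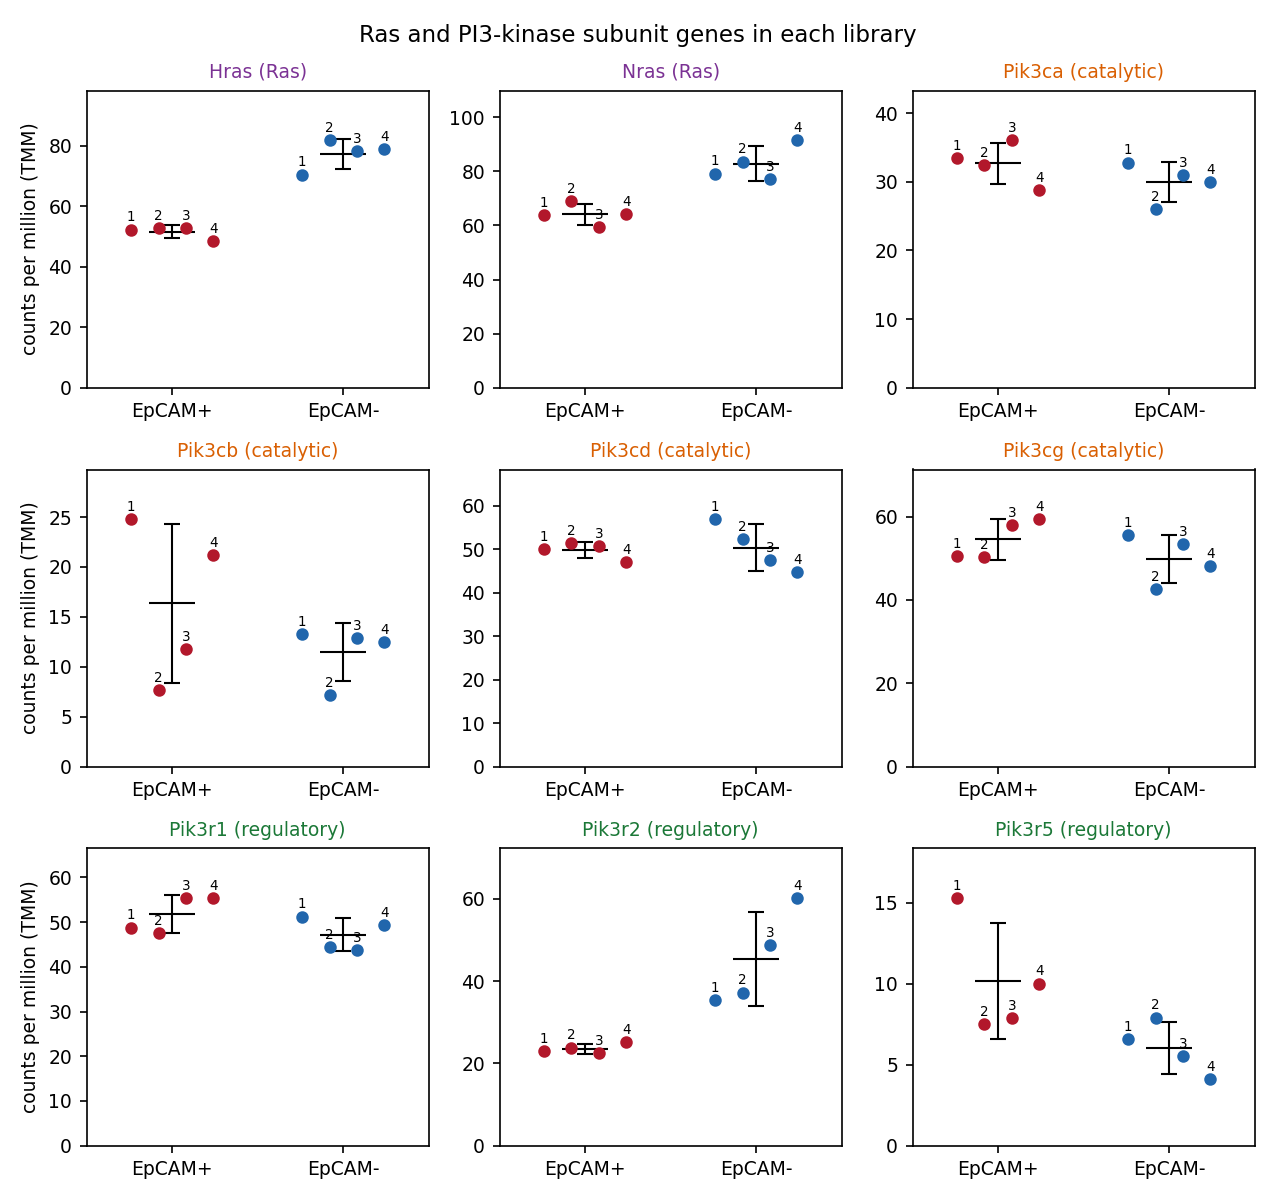
CPM (TMM-scaled counts) of the 9 genes in each of the 8 libraries, with the replicate number beside each point, red for EpCAM+ and blue for EpCAM-; the horizontal line is the mean and the bar the SD of 4 libraries. *Hras*, *Nras* and *Pik3r2* have no overlap between the fractions, while the EpCAM+ libraries of *Pik3cb* spread from 7.64 to 24.8 CPM.

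*Hras* (ENSMUSG00000025499, chr7:141189105-141194005 of GRCm38, minus strand) encodes one of the classical Ras switches. Its levels in EpCAM+ replicates 1 to 4 were 52.3, 52.8, 52.7 and 48.5 CPM. In EpCAM- replicates 1 to 4 they were 70.4, 81.9, 78.2 and 78.8 CPM. All EpCAM+ libraries were low and all EpCAM- libraries high, with a gap between the highest of the first and the lowest of the second that exceeded the range within the EpCAM+ fraction. The means were 51.6 ± 2.10 CPM and 77.3 ± 4.89 CPM (SD, n = 4 each), and the log2 fold change was -0.58 (standard error 0.07, 95% interval -0.74 to -0.43, adjusted p = 0.000323 by edgeR, two-sided quasi-likelihood test, Benjamini-Hochberg adjusted). It was lower in 4 of 4 pairs of libraries with the same number.

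*Nras* (ENSMUSG00000027852, chr3:103058285-103067914, plus strand) encodes a second classical Ras protein, which is often mutated in myeloid leukemia. The 4 EpCAM+ libraries were at 63.9, 68.9, 59.3 and 64.2 CPM. The 4 EpCAM- libraries were at 79.2, 83.6, 77.0 and 91.6 CPM. The fractions again did not overlap, but the gap was narrower than for *Hras*. The means were 64.1 ± 3.96 CPM and 82.8 ± 6.46 CPM (SD, n = 4 each), and the fitted log2 fold change was -0.37 (standard error 0.08, 95% interval -0.54 to -0.20, edgeR adjusted p = 0.00417). *Nras* was lower in 4 of 4 numbered pairs. Both Ras genes passed the test under each of the 17 alternative analyses, *Hras* with values from -0.63 to -0.50 and *Nras* with values from -0.41 to -0.28.

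Within a library the ratio of *Hras* to *Nras* counts does not depend on the scaling between libraries. It was 0.807 ± 0.0618 in EpCAM+ and 0.936 ± 0.0735 in EpCAM- libraries (SD, n = 4 each). The log2 ratios overlapped between the fractions, and the difference of -0.21 had an exact two-sided permutation p of 0.0857 (adjusted over the 8 ratios examined, 0.343). The ratio was lower in the EpCAM+ library in 4 of 4 numbered pairs, for which an exact two-sided sign-flip test gives 0.125, the smallest p that 4 pairs allow. Neither test passed 0.05. The longest exact stretch that annotated transcripts of the 2 genes share is 23 bases, far shorter than the 150-bp reads, and no other pair among the 9 genes shared a longer one. No annotated gene that overlaps one of the 9 had more than 6 counts in a library.

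The proximal promoters of the 4 genes that passed the test are shown, since 3 of them differed in the same direction, beside that of *Pik3cg*, a catalytic subunit gene that did not pass. Each line is the 250 bases upstream of a RefSeq-annotated start in GRCm38.p6, 5′ to 3′ on the gene's strand, with the GC box GGGCGG or its reverse complement in capitals. The windows are chr7:141194005-141194254 (minus strand) for *Hras*, chr3:103058035-103058284 (plus) for *Nras*, chr8:70776713-70776962 (minus) for *Pik3r2*, chr11:68431875-68432124 (plus) for *Pik3r5* and chr12:32208660-32208909 (minus) for the start of *Pik3cg* that lies furthest upstream.
Hras: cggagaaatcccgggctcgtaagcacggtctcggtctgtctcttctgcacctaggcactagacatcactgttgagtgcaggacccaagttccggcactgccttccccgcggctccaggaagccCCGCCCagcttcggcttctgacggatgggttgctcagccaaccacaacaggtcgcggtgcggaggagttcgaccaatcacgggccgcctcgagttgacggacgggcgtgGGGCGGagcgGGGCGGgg
Nras: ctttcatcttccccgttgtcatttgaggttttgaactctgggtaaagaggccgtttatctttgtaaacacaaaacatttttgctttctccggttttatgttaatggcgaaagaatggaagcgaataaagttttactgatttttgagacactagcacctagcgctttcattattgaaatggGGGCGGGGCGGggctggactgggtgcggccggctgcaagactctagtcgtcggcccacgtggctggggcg
Pik3r2: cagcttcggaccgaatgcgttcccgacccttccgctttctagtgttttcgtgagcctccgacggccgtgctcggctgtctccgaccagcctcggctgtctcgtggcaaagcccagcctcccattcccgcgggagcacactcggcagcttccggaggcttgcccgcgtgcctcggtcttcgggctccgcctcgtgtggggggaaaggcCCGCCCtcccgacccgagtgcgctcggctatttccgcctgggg
Pik3r5: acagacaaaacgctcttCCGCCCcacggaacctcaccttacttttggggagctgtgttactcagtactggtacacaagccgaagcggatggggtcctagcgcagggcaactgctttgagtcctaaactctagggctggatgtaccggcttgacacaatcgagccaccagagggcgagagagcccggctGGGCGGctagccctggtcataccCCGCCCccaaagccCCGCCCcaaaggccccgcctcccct
Pik3cg: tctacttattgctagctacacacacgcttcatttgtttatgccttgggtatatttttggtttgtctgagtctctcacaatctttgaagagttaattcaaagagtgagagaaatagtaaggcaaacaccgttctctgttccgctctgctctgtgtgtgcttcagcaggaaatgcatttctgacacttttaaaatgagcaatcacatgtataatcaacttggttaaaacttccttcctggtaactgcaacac
*Hras* had 3 GC boxes and 24 CpG dinucleotides in its window, and *Nras* had 2 boxes (which overlap by 1 base) and 14 CpG. *Pik3r2* had 1 box and 29 CpG, and *Pik3r5* had 4 boxes and 14 CpG. The *Pik3cg* window shown had no box and 3 CpG, the fewest of all windows of the 9 genes. Other genes that did not pass the test had windows with more, 32 CpG for *Pik3cb* and 19 for *Pik3ca*. The windows of *Pik3r1* had 6 and 30 CpG, and those of *Pik3cd* had 4, 19 and 6. CpG counts thus did not separate the genes that passed from those that did not. Searched on both strands, the GC box occurred in 32.7% of the 32851 mouse promoter windows of the same length, and the median window had 6 CpG. Of the 13 windows annotated for the 9 genes, 9 held the box, among them windows of *Pik3ca*, *Pik3cb*, *Pik3cd* and *Pik3r1*, which did not pass the test. On either strand CACCTG, an E-box of the kind that ZEB proteins bind, was found in none of the windows of *Hras*, *Nras*, *Pik3r2* and *Pik3r5* and in 2 of the 13 windows, both of *Pik3cd*, against 17.2% of all windows. These matches describe the letters in the windows only.

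*Pik3cd* (ENSMUSG00000039936, chr4:149649168-149702571, minus strand) encodes the leukocyte-enriched p110 delta and had the smallest fitted difference of the 4 catalytic genes. It was at 50.1, 51.5, 50.8 and 47.1 CPM in the EpCAM+ libraries and at 57.0, 52.3, 47.5 and 44.8 CPM in the EpCAM- libraries. The EpCAM+ values lay inside the range of the EpCAM- ones. The log2 fold change was -0.02 (standard error 0.09, edgeR adjusted p = 0.897), with a 95% interval of -0.21 to 0.18. Its sign was not fixed, since upper-quartile scaling gave 0.07 and library totals 0.06.

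*Pik3cg* (ENSMUSG00000020573, chr12:32173473-32208659, minus strand) encodes p110 gamma, a class I enzyme driven by G protein-coupled receptors. It was at 50.5, 50.2, 57.9 and 59.4 CPM in EpCAM+ and at 55.5, 42.6, 53.4 and 48.1 CPM in EpCAM- libraries. The fractions overlapped, and the fitted log2 fold change was 0.13 (standard error 0.10, 95% interval -0.10 to 0.35, edgeR adjusted p = 0.332). *Pik3ca* (ENSMUSG00000027665, chr3:32397671-32468486, plus strand) encodes the widely expressed p110 alpha. Its values were 33.5, 32.4, 36.1 and 28.8 CPM in EpCAM+ and 32.8, 26.0, 31.0 and 30.0 CPM in EpCAM- libraries, and its log2 fold change was the same at 0.13 (standard error 0.10, 95% interval -0.10 to 0.35, edgeR adjusted p = 0.335). For both genes the interval runs up to 0.35 on the log2 scale, so no difference was detectable at this depth and spread, and an increase of that size in EpCAM+ cells is inside it.

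*Pik3cb* (ENSMUSG00000032462, chr9:99036654-99140621, minus strand), the gene of p110 beta, varied most among the EpCAM+ replicates. EpCAM+ replicates 1 and 4 were at 24.8 and 21.2 CPM, and replicates 2 and 3 at 7.64 and 11.8 CPM. The EpCAM- libraries were at 13.3, 7.16, 12.9 and 12.5 CPM. The highest EpCAM+ library was thus 3.25 times the lowest, against 1.09 times for *Pik3cd* in the same libraries. The log2 fold change of 0.51 had a standard error of 0.34 and a 95% interval of -0.25 to 1.26 (edgeR adjusted p = 0.252), and it moved between 0.23 and 0.74 when single libraries were left out. EpCAM+ replicates 1 and 4 were also the ones with the highest dendritic cell marker sums (772 and 857 CPM, against 508 and 654 CPM in replicates 2 and 3). These sums were mostly *Flt3*, *Bst2* and *Tcf4*, so they do not measure dendritic cells alone. The part of such cells in the *Pik3cb* values was not tested.

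Levels of different genes were compared per kilobase of the gene length in the table. Among the 4 catalytic genes *Pik3cd* took the largest share of the counts per kilobase in every library, 36.4 to 43.7% in EpCAM+ and 39.7 to 48.4% in EpCAM- libraries. *Pik3cg* came second, with 28.4 to 34.1% and 29.3 to 33.1%. *Pik3ca* held 15.3 to 19.3% and 16.6 to 18.4%, and *Pik3cb* held 5.65 to 16.3% and 5.77 to 9.68%. The ranges of the fractions overlapped for all 4 genes, and the p110 delta and gamma genes together made up most of the class I catalytic signal in both fractions. The *Pik3cb* share exceeded 10% in EpCAM+ replicates 1 and 4 only, at 16.3 and 14.3%. With the gene lengths implied by the deposited FPKM columns (fragments per kilobase and per 1000000 reads) the order of the means was the same, with means of 44.5 and 47.9% for *Pik3cd*.

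**Figure D2:**
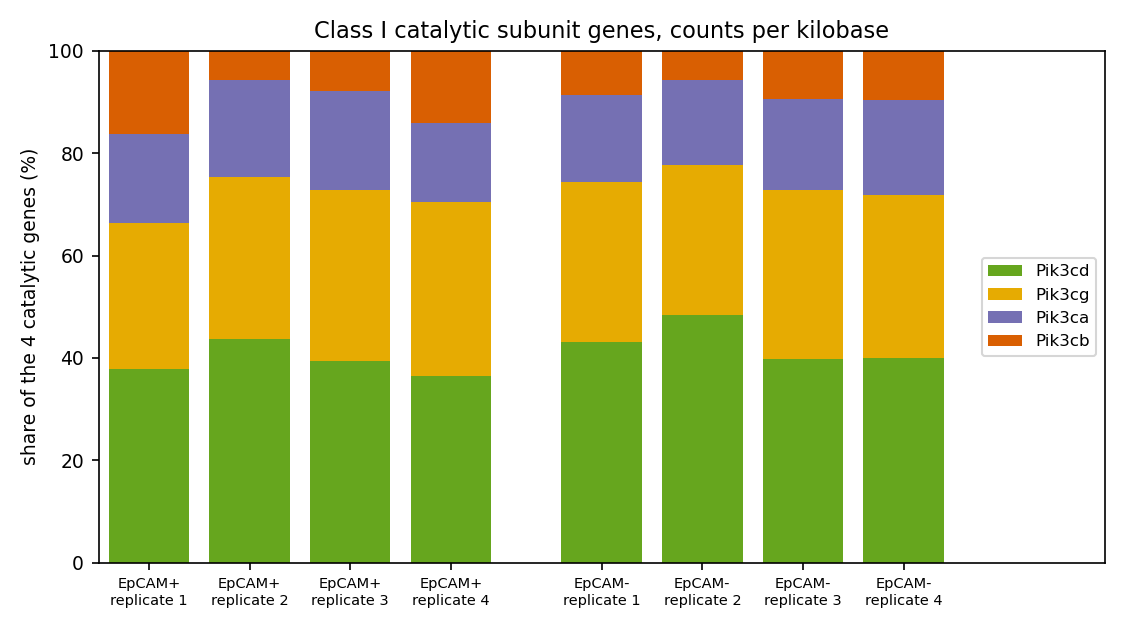
Stacked bars of the share (%) of *Pik3cd*, *Pik3cg*, *Pik3ca* and *Pik3cb* in the summed counts per kilobase of the 4 catalytic genes, for each EpCAM+ and EpCAM- replicate. *Pik3cd* is the largest part in every library, and *Pik3cb* ranges from 5.65 to 16.3% in EpCAM+ libraries.

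*Pik3r2* (ENSMUSG00000031834, chr8:70768176-70776713, minus strand), which encodes the regulatory subunit p85 beta, had the largest difference of the 9 genes. It was at 22.9, 23.8, 22.5 and 25.2 CPM in the EpCAM+ libraries. In the EpCAM- libraries it was at 35.4, 37.2, 48.7 and 60.2 CPM. EpCAM+ libraries were low and close together, while EpCAM- libraries were all higher and differed by up to 1.70 times among themselves. The means were 23.6 ± 1.19 CPM and 45.4 ± 11.5 CPM (SD, n = 4 each), and the fitted log2 fold change was -0.94 (standard error 0.16, 95% interval -1.29 to -0.59, edgeR adjusted p = 0.00130). It passed the test under all 17 alternatives, with values from -1.05 to -0.79, and was lower in 4 of 4 numbered pairs. EpCAM- replicates 3 and 4, the highest for *Pik3r2*, were also the highest for the erythroid and megakaryocyte marker sum (800 and 947 CPM, against 488 and 358 CPM in replicates 1 and 2), and the part of these cells was not tested.

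*Pik3r1* (ENSMUSG00000041417, chr13:101680563-101768217, minus strand) encodes p85 alpha and its shorter forms, the main partners of p110 alpha, beta and delta. It did not follow *Pik3r2*. The EpCAM+ libraries were at 48.8, 47.5, 55.4 and 55.4 CPM and the EpCAM- libraries at 51.2, 44.4, 43.8 and 49.4 CPM. The fractions overlapped, and the log2 fold change of 0.13 (standard error 0.09, 95% interval -0.06 to 0.33) did not pass the test (edgeR adjusted p = 0.242).

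The balance of the 2 p85 genes was examined within each library. There were 2.13, 1.99, 2.46 and 2.20 *Pik3r1* counts for each *Pik3r2* count in the EpCAM+ libraries, and 1.45, 1.19, 0.901 and 0.821 in the EpCAM- libraries. Every EpCAM+ ratio was above every EpCAM- ratio, and in EpCAM- replicates 3 and 4 *Pik3r2* had more counts than *Pik3r1*. The mean log2 ratios were 1.13 ± 0.13 and 0.09 ± 0.38 (SD, n = 4 each), a difference of 1.04. The exact two-sided permutation p was 0.0286, the smallest that 4 libraries against 4 allow, and it was 0.229 after adjustment over the 8 ratios examined, so no ratio passed the correction. Leaving out single libraries moved the difference between 0.92 and 1.19. By numbered pairs this ratio and that of *Pik3r1* to *Pik3cd* were higher in 4 of 4 EpCAM+ libraries, and those of *Hras* to *Nras* and of *Pik3cd* to *Pik3cg* were lower in 4 of 4. The other 7 ratios overlapped between the fractions, among them *Pik3r1* to *Pik3cd* (log2 difference 0.14, exact permutation p = 0.257) and *Pik3r5* to *Pik3cg* (0.60, exact permutation p = 0.143).

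**Figure D3:**
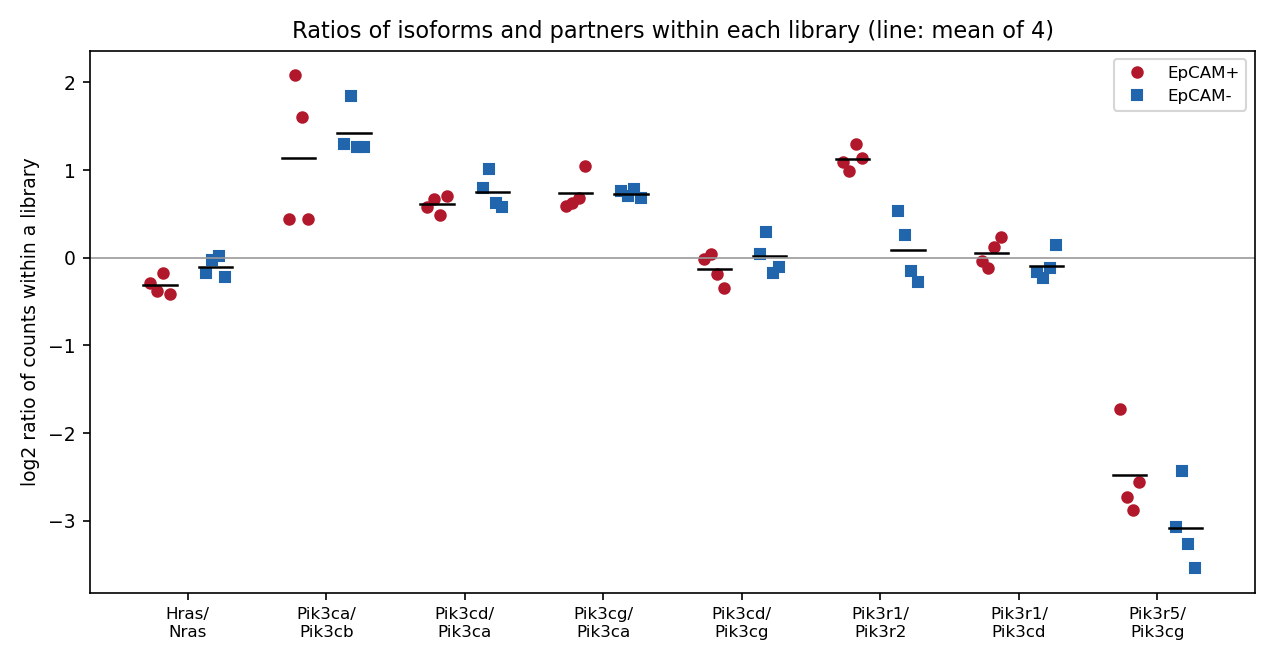
Log2 ratio of the counts of 2 genes within each library for the 8 gene pairs examined (pseudocount 0.5), with circles for the 4 EpCAM+ and squares for the 4 EpCAM- libraries and a line at each mean. The *Pik3r1*/*Pik3r2* ratios of the fractions do not overlap, with means of 1.13 and 0.09, and the other 7 pairs overlap.

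*Pik3r5* (ENSMUSG00000020901, chr11:68432121-68497849, plus strand) encodes p101, the regulatory partner of p110 gamma. It had the fewest reads of the 9, between 56 and 235 counts a library. The EpCAM+ libraries were at 15.3, 7.52, 7.86 and 10 CPM and the EpCAM- libraries at 6.60, 7.90, 5.51 and 4.11 CPM. EpCAM- replicate 2 lay just above EpCAM+ replicates 2 and 3, so the fractions overlapped with TMM scaling. With upper-quartile scaling or library totals they did not, which makes 4 of the 9 genes without overlap. How many of all tested genes lack overlap under these scalings was not determined, so this count has no background beside it. Both scalings also moved tested genes in general towards EpCAM+. On the log2 scale the median gene stood at 0.11 with upper-quartile scaling and 0.1 with library totals, against 0.02 with TMM. *Pik3r5* was higher in 3 of 4 numbered pairs. The means were 10.2 ± 3.60 CPM and 6.03 ± 1.61 CPM (SD, n = 4 each), and the fitted log2 fold change was 0.75 (standard error 0.27, 95% interval 0.16 to 1.35, edgeR adjusted p = 0.0438). The call rested on single libraries. Without EpCAM+ replicate 1 the value was 0.48 (edgeR adjusted p = 0.133), and without EpCAM+ replicate 4 it was 0.75 (0.0759). Without EpCAM- replicate 1, 3 or 4 the adjusted p by edgeR was 0.0617, 0.103 or 0.110, with values of 0.79, 0.70 and 0.60. EpCAM+ replicate 1, the highest for *Pik3r5*, was also the library with a plasma cell marker sum of 3970 CPM, mostly of *Jchain*. With EpCAM+ replicate 4 it had the 2 highest dendritic cell marker sums, which were mostly *Flt3*, *Bst2* and *Tcf4*. The part of plasma and dendritic cells in the *Pik3r5* values was not tested.

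**Figure D4:**
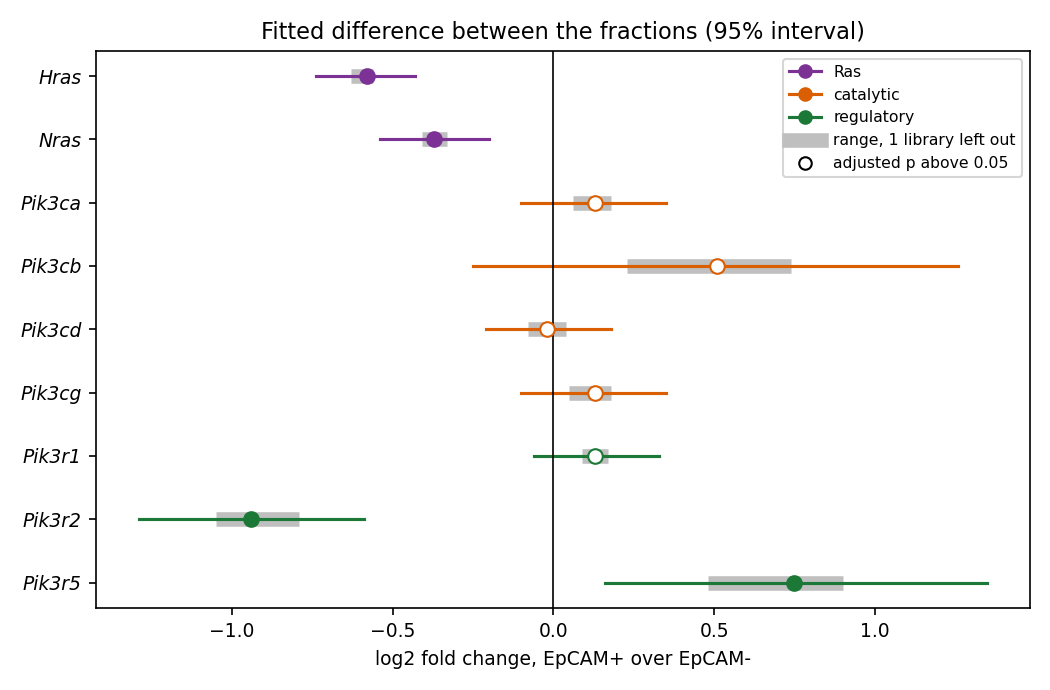
Fitted log2 fold change (EpCAM+ over EpCAM-) of the 9 genes with its 95% interval, coloured by role, with a filled point where the adjusted p passed 0.05 and a grey bar for the range when each of the 8 libraries was left out. The intervals of *Hras*, *Nras* and *Pik3r2* lie below 0 and that of *Pik3r5* (0.16 to 1.35) above it, while the other 5 include 0.

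Ordered by level per kilobase in EpCAM+ libraries, *Hras* (13.8 ± 0.562 CPM per kb) was followed by *Nras* (12 ± 0.742), *Pik3cd* (7.97 ± 0.308), *Pik3cg* (6.47 ± 0.576), *Pik3r2* (5.65 ± 0.286), *Pik3r1* (5.14 ± 0.420), *Pik3ca* (3.60 ± 0.335), *Pik3cb* (2.27 ± 1.11) and *Pik3r5* (1.83 ± 0.649; SD, n = 4 each). The libraries of *Pik3cg* and *Pik3r2*, of *Pik3r2* and *Pik3r1*, of *Pik3ca* and *Pik3cb* and of *Pik3cb* and *Pik3r5* overlapped, so these neighbours were not separated beyond their spread. In EpCAM- libraries *Hras* (20.7 ± 1.31 CPM per kb) and *Nras* (15.5 ± 1.21) were again first, and *Pik3r2* followed at 10.9 ± 2.75 CPM per kb, overlapping with *Pik3cd* (8.05 ± 0.859). The rest of the order was unchanged, from *Pik3cg* (5.92 ± 0.687) over *Pik3r1* (4.68 ± 0.360) and *Pik3ca* (3.29 ± 0.315) to *Pik3cb* (1.60 ± 0.403) and *Pik3r5* (1.09 ± 0.290). Besides *Pik3r2* and *Pik3cd*, the libraries of *Pik3cg* and *Pik3r1* and of *Pik3cb* and *Pik3r5* overlapped there. With the gene lengths implied by the FPKM columns *Nras* stood above *Hras* in both fractions, and *Pik3r2* ranked 4 in EpCAM+ and 3 in EpCAM- libraries. *Pik3r1* moved from rank 6 to 3 in EpCAM+ and to 4 in EpCAM- libraries, *Pik3cd* moved to 5 in both fractions and *Pik3cg* to 6, and *Pik3r5* passed *Pik3cb*, with overlapping libraries, so much of the order depends on the length used.

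Among 8632 protein-coding genes of at least 10 CPM, the patterns most like that of *Pik3r5* over the 8 libraries were those of *Arhgap26*, *Coro1b* and *Fam98c* (Pearson r of log2 CPM 0.992, 0.989 and 0.978), and 96 genes had an r above 0.9. For *Pik3r2* they were *Nudt9*, *Pla2g12a* and *Got2* (r = 0.998, 0.998 and 0.997), with 1299 of 8631 genes above 0.9. These correlations run over libraries of 2 separate fractions, so a gene that differs between the fractions reaches a high r with many others.

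The genes around Ras and PI3-kinase were read from 9 lists with 126 tested genes. Of these, 37 were higher and 17 lower in EpCAM+ libraries (42.9% called, against the 42.6% of all tested genes), and their median log2 fold change was 0.15. Over all tested genes 21.8% were higher and 20.8% lower. Upper-quartile scaling and library totals left 10 of the pathway genes lower in each case, with 48 and 46 higher.

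Other Ras family GTPases had 6 of 13 tested genes higher and 1 lower, opposite to the direction of *Hras* and *Nras*, with a list median of 0.21. The 3 with the smallest adjusted p were *Rras* at 24.0 CPM in EpCAM+ and 9.16 CPM in EpCAM- libraries, *Rap2a* at 22.5 and 15.3 CPM, and *Rala*, which acts in the RalGEF branch below Ras, at 76.4 and 53.9 CPM. Their log2 fold changes were 1.39, 0.56 and 0.50 (edgeR adjusted p 0.00122, 0.00455 and 0.00705). The gene of the RHEB switch, which activates mTORC1, was the single lower one (*Rheb*, log2 fold change -0.21), and with upper-quartile scaling or library totals no gene of this list was called lower.

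Exchange factors and adaptors that load Ras with GTP had 1 of 11 tested genes higher and none lower (median -0.04). That gene was *Rasgrp3*, an exchange factor activated by diacylglycerol, at 12.1 CPM in EpCAM+ and 0.225 CPM in EpCAM- libraries, the latter on few reads. The list of GTPase-activating proteins, which turn Ras off, and feedback inhibitors had 7 of 16 higher and 1 lower (median 0.39). It also holds *Rassf2* and *Rassf5*, which bind active Ras and are neither, and without these 2 higher genes 5 of 14 were higher and 1 lower (median 0.35). *Rasal3* was at 99.6 and 58.8 CPM (log2 fold change 0.76), *Dab2ip* at 21.8 and 10.3 CPM (1.08), and *Rasa4*, the lower one, at 25.3 and 35.0 CPM (-0.47), with edgeR adjusted p of 0.00114, 0.00198 and 0.00296. Enzymes and carriers that process Ras and bring it to membranes had 3 of 10 lower and none higher (median -0.13), the same direction as *Hras* and *Nras*, but 2 lower and 1 higher with upper-quartile scaling or library totals. They were *Pde6d*, a carrier of farnesylated Ras, at 68.7 and 85.4 CPM (-0.31), *Rce1*, the protease that trims farnesylated Ras, at 58.3 and 71.9 CPM (-0.30), and *Golga7*, part of the palmitoyltransferase of HRAS and NRAS, at 162 and 186 CPM (-0.20). *Golga7* lost its call with upper-quartile scaling (-0.11, edgeR adjusted p = 0.170) and without EpCAM+ replicate 2 or 3 or EpCAM- replicate 3 (0.0850, 0.0776 and 0.0606).

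Of the RAF-MEK-ERK cascade 1 of 16 tested genes was higher and 2 were lower (median 0.12), and with upper-quartile scaling 4 were higher and 1 lower. *Map2k2*, the gene of the ERK kinase MEK2, was at 152 CPM in EpCAM+ and 199 CPM in EpCAM- libraries (log2 fold change -0.39, edgeR adjusted p = 0.00194). *Dusp4*, an ERK phosphatase, was at 2.41 and 0.309 CPM (2.88), the lower level resting on few reads. *Rps6ka2*, an ERK-activated kinase, was at 1.71 and 2.73 CPM (-0.68) and was not called when the replicate number was a block (edgeR adjusted p = 0.0565) or without any one library other than EpCAM- replicate 2 or 4.

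PI3-kinase genes outside the 9 had 3 of 7 tested genes higher and none lower (median 0.62). They were *Pik3ip1*, which inhibits the p110 subunits, at 112 and 72.6 CPM (log2 fold change 0.62), *Pik3c2b*, a class II enzyme, at 3.45 and 1.74 CPM (0.98), and *Pik3ap1*, an adaptor that recruits PI3-kinase below B cell and Toll-like receptors, at 21.1 and 11.9 CPM (0.82). *Pik3ap1* was not called without EpCAM+ replicate 4 (0.67, edgeR adjusted p = 0.0539). *Pik3r6*, the gene of the other p110 gamma partner p84, was at 2.07 and 2.30 CPM and did not pass (-0.17, edgeR adjusted p = 0.754), and *Pik3r3*, another p85 family gene, had too few reads (0.229 and 0.313 CPM).

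Phosphatases that remove PI3-kinase products had 7 of 10 tested genes higher and none lower (median 0.36). *Inpp4b* was at 9.20 CPM in EpCAM+ and 4.52 CPM in EpCAM- libraries (log2 fold change 1.03), and *Inppl1*, which encodes SHIP2, at 1.79 and 0.405 CPM (2.14), again on few reads. *Inpp5d*, which encodes SHIP1, the main 5-phosphatase of PIP3 in blood cells, was at 115 and 80.3 CPM (0.52, edgeR adjusted p = 0.00634).

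In the AKT-mTOR-FOXO arm 6 of 24 tested genes were higher and 5 lower (median 0.02), and with upper-quartile scaling or library totals 9 were higher and 2 lower. *Akt1* and *Akt2* did not pass, at 243 and 240 CPM for *Akt1* and 96.4 and 93.5 CPM for *Akt2* (log2 fold changes 0.02 and 0.04, edgeR adjusted p 0.848 and 0.704). *Eif4ebp1*, a repressor of cap-dependent translation that mTORC1 inactivates, was at 149 and 230 CPM (-0.63), *Rictor*, a subunit of mTORC2, at 79.5 and 57.5 CPM (0.47), and *Foxo1*, a transcription factor that AKT keeps out of the nucleus, at 19.3 and 12.2 CPM (0.66).

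Receptors and kinases upstream had 6 of 19 tested genes higher and 5 lower (median 0.18). Those with the smallest adjusted p were the M-CSF receptor *Csf1r* at 1.79 CPM in EpCAM+ and 23.5 CPM in EpCAM- libraries (log2 fold change -3.71) and the erythropoietin receptor *Epor* at 10.9 and 71.5 CPM (-2.72). Both are also in the marker lists, *Csf1r* in that of monocytes and neutrophils and *Epor* in that of erythroid cells and megakaryocytes.

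**Figure D5:**
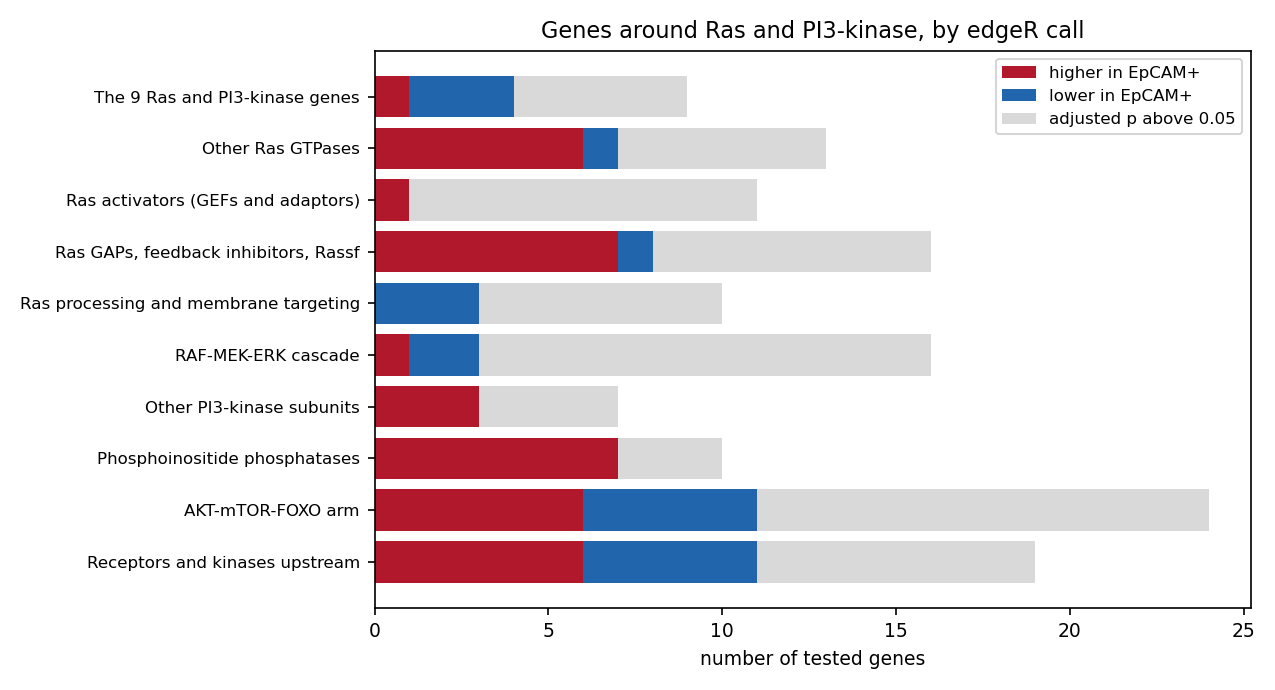
Number of tested genes that were higher, lower or not called in EpCAM+ against EpCAM- libraries (edgeR adjusted p of 0.05), for the 9 Ras and PI3-kinase genes and for the 9 lists of genes around them. The phosphatases have 7 of 10 higher and none lower, and the Ras processing genes 3 of 10 lower and none higher.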

How the data were processed

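The values are 8 columns of raw read counts per gene and 8 columns of FPKM, deposited by the authors in a table of the whole series, with fold changes and p-values of the authors' own comparisons, which were not used; the log2 and p-value columns of the deposited table hold these. The authors used SMART-Seq v4 amplification, 1 ng of cDNA for each library and paired 150-bp reads and, per the submitters' processing notes, ran STAR 2.6.1d, featureCounts 1.5.0-p3, DESeq2 1.20.0 and GRCm38.p6. The annotation release and strand setting are not given in the sources used here. The FPKM values deposited by the authors correspond to shorter genes than their length column (median ratio 1.52) and served only for the alternative order of levels.

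Counts were filtered with filterByExpr, scaled by TMM and tested with edgeR 4.0.16 (quasi-likelihood test, two-sided, Benjamini-Hochberg over 13560 genes, threshold 0.05), in R 4.3.3. Standard errors were derived from the F statistic. Ratios used a pseudocount of 0.5 and exact permutation tests. On simulated data with 200 genes changed 2-fold, 137 of 195 tested were recovered and 11 of 148 calls were false (7.43%). In the real libraries 42.6% of tested genes were called. All 9 genes differed by less than 2-fold, with log2 fold changes of -0.58 for *Hras*, -0.37 for *Nras* and -0.94 for *Pik3r2*, the largest. Recovery under such conditions was not tested, nor was the share of false calls. Alternatives were DESeq2 1.42.0, limma-trend (limma 3.58.1, prior count 1), 3 other scalings, 2 other filters, protein-coding genes alone, the replicate number as a block and each library left out.

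Libraries with the same replicate number deviated together from their fraction means (correlation across genes 0.205 to 0.356 in 4 pairs, against -0.216 to 0.04 in the other 12), so by the data the numbers pair the samples. The authors' own comparisons include those of same-numbered libraries, and no label says that these share a mouse. The main test left the pairing out, and the shares of genes called come from that test. The p-values measure the spread between these libraries, and counts of amplified reads are not independent molecules. Genes named are the 9 members, up to 3 called genes of each list with the smallest adjusted p, direct partners of the members, *Epcam*, *Zeb1* and the genes most like *Pik3r2* and *Pik3r5*; marker genes, *Rheb*, *Rassf2* and *Rassf5* were named after their values were seen, and some genes under this rule are not reported here. Positions are those of the deposited table. The 9 genes and all lists were chosen with earlier results of these data known. Promoters came from RefSeq (GRCm38.p6). Figures were drawn with matplotlib 3.10.9 in Python 3.11.15.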

Additional observations from a re-analysis of the deposited data

Results flagged for a closer look

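A test for single values far from the rest of a fraction was run on the 34 groups of 4 libraries (the genes and ratios above), and chance gives about 1 such value in 20 groups. *Hras* in EpCAM+ replicate 4 was at 48.5 CPM, below the other 3 EpCAM+ libraries at 52.3 to 52.8 CPM, and left the fraction still further from the EpCAM- libraries. *Pik3cb* in EpCAM- replicate 2 was at 7.16 CPM, where the other 3 EpCAM- libraries were at 12.5 to 13.3 CPM. The log2 ratio of *Pik3ca* to *Pik3cb* in that library was 1.85, against 1.26 to 1.30 in the others.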

How the results depend on the processing

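Of the 9 genes, *Hras*, *Nras* and *Pik3r2* passed the test in all 17 alternatives. *Pik3r5* passed in 11 of 17 (log2 fold change 0.48 to 0.90), and with a filter of 1 count in any library the number of the 9 genes called higher was 0 (*Pik3r5* adjusted p = 0.0536 by edgeR). With single libraries left out that number was 0 to 1, and the number of pathway genes called lower was 11 to 18, for reasons that were not tested. Upper-quartile scaling and library totals each left 10 pathway genes lower instead of 17, moved the median of all tested genes to 0.11 and 0.1, and raised the share of higher calls among all tested genes from 51.2% to 63.6% and 62.4% (3642 higher and 2083 lower, and 3434 and 2073). The log2 fold change of *Pik3cd*, which was never called, changed sign to 0.07 with upper-quartile scaling, 0.06 with library totals and 0.01 with a filter of 10 counts in every library, and ranged from -0.08 to 0.04 with single libraries left out. Other uncalled genes changed sign only with a library left out, *Pik3r6* ranging from -0.41 to 0.11, *Akt1* from -0.02 to 0.05 and *Akt2* from -0.04 to 0.08. With the replicate number as a block 3465 genes were higher and 3353 lower in all, against 2961 and 2818 in the main test. By numbered pairs the ratios of *Pik3r1* to *Pik3r2*, *Hras* to *Nras*, *Pik3cd* to *Pik3cg* and *Pik3r1* to *Pik3cd* had an exact sign-flip p of 0.125, the smallest that 4 pairs allow. *Rps6ka2* lost its call with the block, and no other call of a named gene changed. *Pik3r5* had the fewest reads of the 9 genes (56 to 235 counts a library). Its replicates were also uneven, with the highest library 2.04 times the lowest in EpCAM+ and 1.92 times in EpCAM-. The part of depth in that spread was not tested. For genes below 1 CPM in a fraction the fold rests on few reads.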
